A study of Mus musculus with 12 samples.

Results

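The 9 genes described here are the Ifit genes Ifit1, Ifit2, Ifit3, Ifit3b and Ifit1bl1, the ubiquitin-like modifier gene Isg15, the viperin gene Rsad2, and the Mx genes Mx1 and Mx2. They were taken by name as a family of antiviral interferon-stimulated genes (ISG), with no threshold on their values but with earlier results of these data known, and all 9 were found among the 54232 Ensembl identifiers of the count table. RNA-seq was performed on natural killer (NK) cells and on CD8+ T cells, which were sorted from subcutaneous MC38 tumors, a transplanted mouse colon adenocarcinoma line, 8 to 10 days after injection of 1000000 tumor cells into each flank. The host mice were wild type (WT), Tyk2-deficient (KO, Tyk2-/-, labelled TYK2KO) or carried the kinase-inactive TYK2 K923E protein (KE, labelled TYK2KE). By the study's methods the mice had a C57BL/6N background and were matched for sex and age, at 6 to 12 weeks, and the labels give the treatment as none. For the tumor transplants the methods name the Tyk2-/- line without the CMV-cre transgene, whereas a library list of the study gives the KO libraries as TYK2CMV with the genotype Tyk2-ko, and the labels, which read TYK2KO, were followed here. Each of the 6 groups held 2 libraries of 300 sorted cells, and no source used here says whether the 2 libraries of a group came from separate mice, so the p-values measure the spread between these libraries, which may be technical.

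Type I interferons bind the receptor chains IFNAR1 and IFNAR2, which carry the kinases TYK2 and JAK1. The kinases phosphorylate STAT proteins, and STAT2 with IRF9 forms part of the factor that binds interferon-stimulated response elements (ISRE) in the promoters of ISG. IFIT proteins bind viral RNA, ISG15 is conjugated to other proteins and also acts as a free cytokine, viperin is a radical enzyme that converts CTP to a chain-terminating nucleotide, and MX proteins are dynamin-like GTPases. Common laboratory strains, C57BL/6 among them, carry Mx1 and Mx2 alleles that do not give a functional protein, so the Mx transcripts are measured here as readouts of transcription only.

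The 9 genes lie at 4 places in the genome (coordinates are from GENCODE M21 on GRCm38). The Ifit genes form a cluster on chromosome 19 between 34550694 and 34650009, with Ifit2, Ifit3, Ifit3b and Ifit1 on the plus strand and Ifit1bl1 on the minus strand. Isg15 is on chromosome 4 (156199424 to 156200818, minus strand), Rsad2 on chromosome 12 (26442746 to 26456452, minus strand), Mx1 on chromosome 16 (97447035 to 97462907, minus strand) and Mx2 on chromosome 16 (97535308 to 97560900, plus strand, annotated as a polymorphic pseudogene). No exon of the 9 genes overlapped an exon of another gene. Only 48.8% of the 50-base exon windows of Ifit3 and 55.0% of those of Ifit3b were found nowhere else among annotated exons, and the pair shared 869 windows. Since only uniquely aligned reads were counted, the values of these genes rest on their distinct parts and are uncertain. The other 7 genes had between 92.9% and 100% unique windows.

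RefSeq promoter windows of GRCm38.p6 (250 bases before to 50 after a start site) were available for 7 of the 9 genes, with 9 windows in all, and not for Mx1 and Mx2. The ISRE pattern GAAANNGAAA, searched on both strands, was found in 6 of the 7 genes, compared with 3.44% of all 32851 promoter windows. It was not matched in the Ifit2 windows, of which 1 held the only match among the 9 windows to the STAT site pattern TTCNNNGAA, a pattern found in 8.3% of all windows. Because the members were chosen with knowledge of the gene family, these matches are a description, and a match is not a known binding site. The stretches of 80 bases around the ISRE matches are printed here because 6 of the 7 genes with promoter windows held the pattern. Each is written 5' to 3' on the strand of the gene with the matched letters in capitals (a match on the opposite strand reads TTTCNNTTTC).
Ifit1, chr19:34640759-34640838, plus strand: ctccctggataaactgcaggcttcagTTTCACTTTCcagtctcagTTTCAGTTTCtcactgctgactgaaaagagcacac
Ifit3, chr19:34583355-34583434, plus strand: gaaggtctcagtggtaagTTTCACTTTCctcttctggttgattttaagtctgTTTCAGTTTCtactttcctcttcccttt
Ifit3b, chr19:34607751-34607830, plus strand: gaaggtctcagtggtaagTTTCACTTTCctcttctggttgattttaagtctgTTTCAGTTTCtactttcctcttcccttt
Ifit1bl1, chr19:34602028-34602107, minus strand: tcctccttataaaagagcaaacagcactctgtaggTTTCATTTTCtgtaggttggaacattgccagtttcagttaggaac
Isg15, chr4:156200846-156200925, minus strand: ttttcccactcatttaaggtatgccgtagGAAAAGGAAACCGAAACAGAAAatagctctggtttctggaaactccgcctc
Rsad2, chr12:26456528-26456607, minus strand: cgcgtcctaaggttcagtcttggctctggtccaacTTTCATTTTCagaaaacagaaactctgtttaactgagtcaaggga
The stretches of Ifit3 and Ifit3b were identical at 80 of 80 positions. Isg15 held 3 overlapping ISRE matches, Ifit1 and Ifit3 held a pair each, and Rsad2 held a single match, 120 to 111 bases upstream of the start site. The Ifit1 stretch overlapped by 79 bases with that of Ifit1bl2, a further Ifit gene that starts 128 bases away on the opposite strand.

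**Figure D1:**
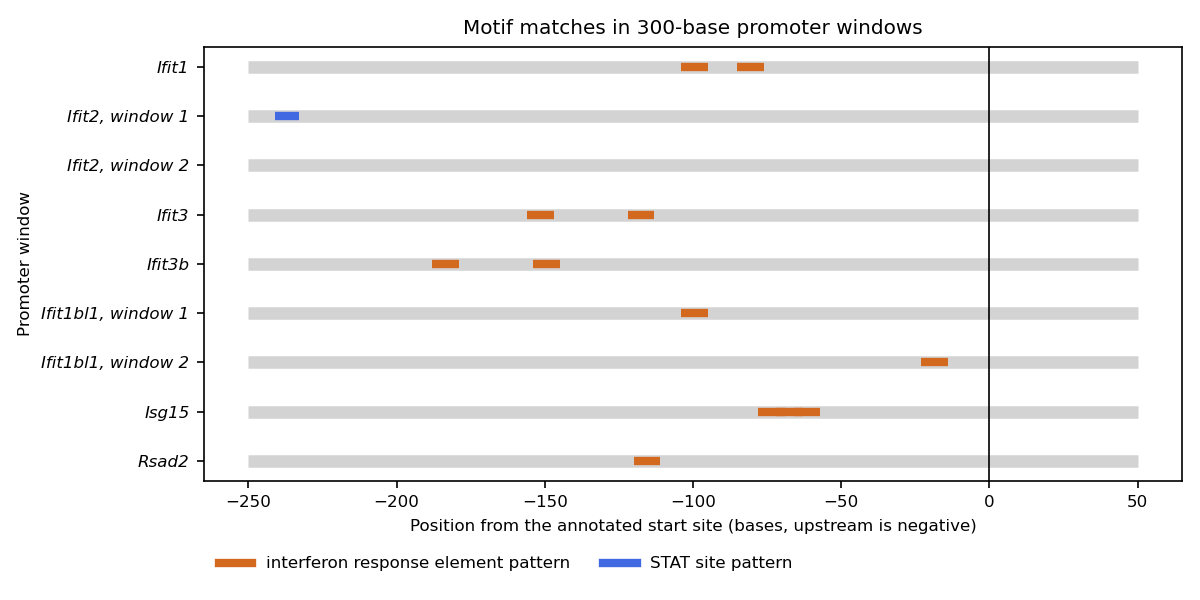
Position of ISRE pattern matches (orange) and STAT site pattern matches (blue) in the 300-base RefSeq promoter windows (grey bars), in bases from the annotated start site (vertical line, upstream is negative). Matches to the ISRE pattern lie upstream of the start site in 7 of the 9 windows, and the 3 matches of Isg15 overlap and appear as 1 block.

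Sequencing yielded 10378761 to 14732882 counts per library. Counts were normalized with TMM and are given as CPM (counts per 1000000), in which a floor of 3 counts in a library corresponds to 0.218 to 0.276 CPM. Tests covered the 13279 genes whose normalized counts averaged 10 or more, and all 9 members passed this filter. The common biological coefficient of variation over the 12 libraries was 109%. The 6 T cell markers summed to 10781 to 15164 CPM in the CD8+ T cell libraries, to 65.7 and 112 CPM in the WT NK cell libraries and to 89.3 to 340 CPM in the mutant NK cell libraries, of which 3 of 4 were above both WT libraries. The 4 NK cell markers summed to 894 to 1391 CPM in the CD8+ T cell libraries, most of it Klrk1, at 886 to 1356 CPM. In these libraries Eomes was at 0.593 to 40.2 CPM, Klrb1c at 1.41 to 5.05 CPM and Ncr1 at 1.03 to 1.99 CPM. The 4 markers summed to 3614 and 4242 CPM in the WT NK cell libraries and to 4627 to 6679 CPM in the mutant NK cell libraries, all above both WT libraries. The 16 macrophage, monocyte and dendritic cell markers, in contrast, summed to 14181 and 16555 CPM in the WT NK cell libraries and to between 26.5 and 7198 CPM in the mutant NK cell libraries. In WT NK cells 13 of the 16 were above the floor in at least 1 library, and the dendritic cell markers Flt3, Xcr1 and Clec9a were at 0 counts. Neutrophil markers summed to 6.28 and 6.71 CPM in WT NK cells and to 0 in mutant NK cells, with S100a8, S100a9, Retnlg and Cxcr2 at 0 counts in all NK cell libraries. Tyk2 itself was present in every library, at 48.3 to 86.1 CPM in the WT, 56.3 to 105 CPM in the KO and 46.7 to 119 CPM in the KE libraries, so that the whole-gene count did not separate the genotypes. A count over all exons does not show the deleted or changed part of the gene, and the genotypes are therefore those of the labels.

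In CD8+ T cells all 9 members were lower in each of the 4 mutant libraries than in either WT library, a pattern found in 7.49% of the genes tested. In NK cells this held for 7 of the 9 members, all but Isg15 and Mx2, compared with 10.8% of the genes tested. The same 7 members met it in both cell types at the same time, compared with 1.57% of genes. Summed over the 9 genes, the level was 582 and 668 CPM in WT NK cells and 72.2 to 128 CPM in mutant NK cells, and 1611 and 1690 CPM in WT CD8+ T cells and 41.9 to 297 CPM in mutant CD8+ T cells. The KO and KE groups are compared with the same WT libraries, so their differences from WT are not independent of each other. In bulk samples, fewer cells expressing a gene and less RNA per cell cannot be told apart.

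**Figure D2:**
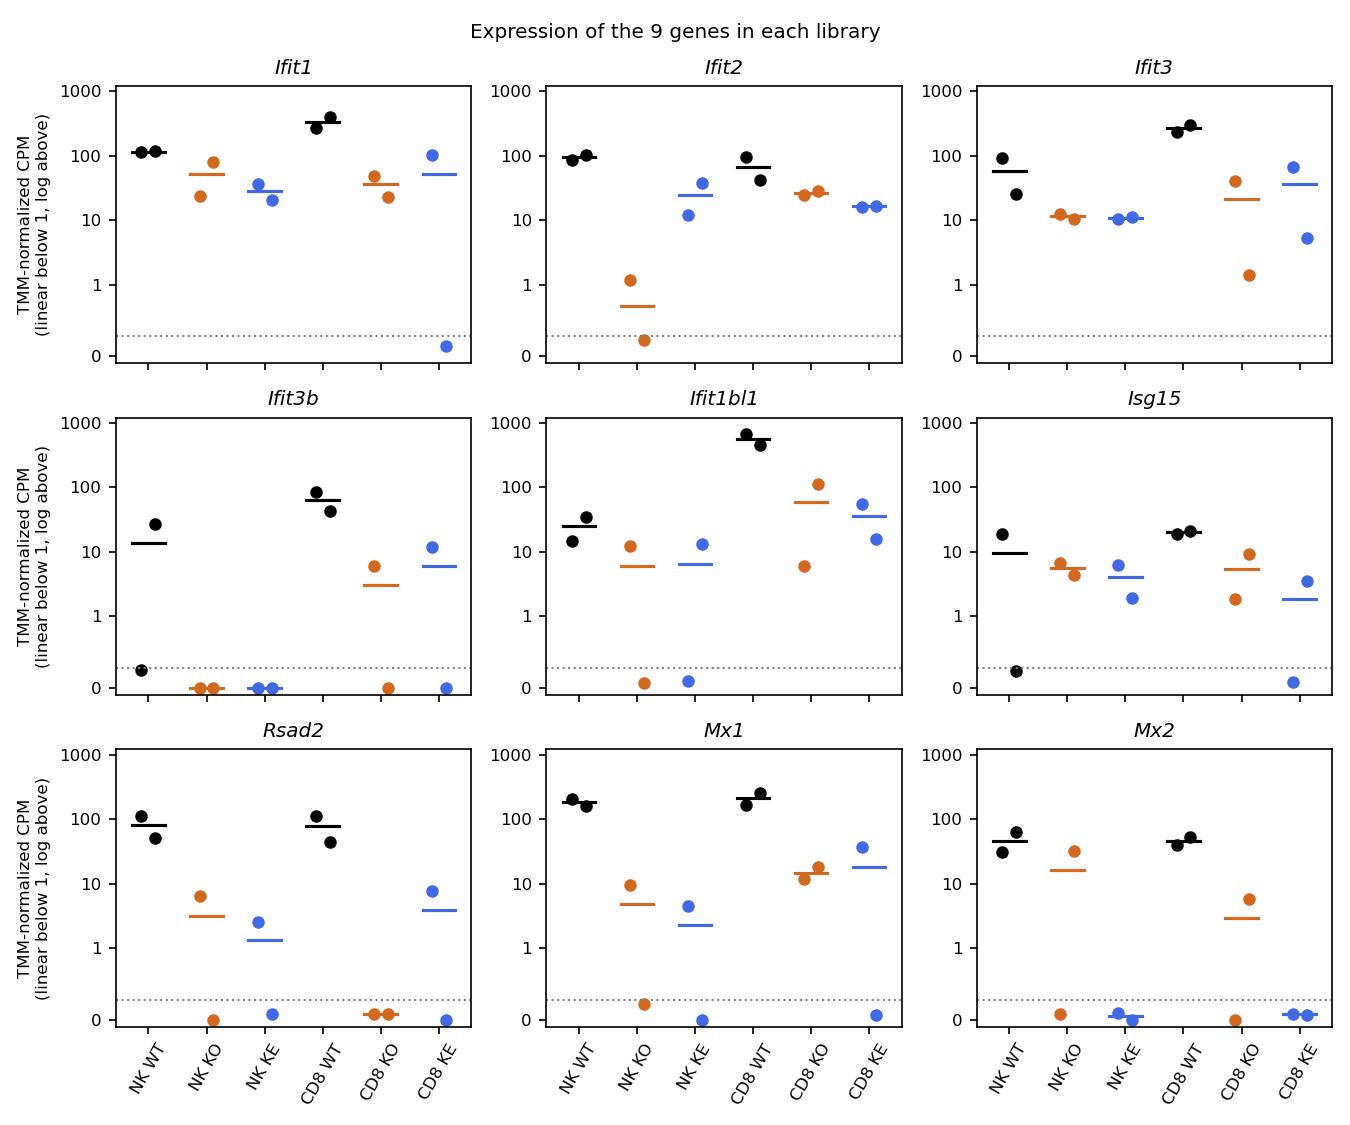
TMM-normalized CPM of each of the 9 genes in the 12 libraries (y axis linear below 1 and logarithmic above, points are libraries, horizontal lines are group means of 2 libraries, dotted line is the highest floor of 3 counts, 0.276 CPM). Black points are WT, orange KO and blue KE, and in the CD8 groups every mutant point lies below both WT points in all 9 panels.

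Ifit1, which binds viral RNA lacking cap methylation, reached 112 and 118 CPM in WT NK cells, 24.0 and 79.7 CPM in KO NK cells, and 36.5 and 20.5 CPM in KE NK cells. Ifit1 in CD8+ T cells reached 265 and 403 CPM in WT, 48.8 and 22.7 CPM in KO, and 103 and 0.146 CPM in KE libraries, the last value being 2 counts. The WT libraries were the highest in both cell types and the groups did not overlap with WT, but the KE CD8+ T cell libraries lay on either side of both KO libraries. Ifit2, which forms complexes with other IFIT proteins, was at 85.3 and 102 CPM in WT NK cells, at 1.17 and 0.222 CPM in KO NK cells and at 11.9 and 37.2 CPM in KE NK cells. Ifit2 in CD8+ T cells was at 93.5 and 41.6 CPM in WT, 24.3 and 28.6 CPM in KO, and 16.0 and 16.8 CPM in KE libraries. Its lowest values were thus those of the KO NK cells, and its mutant CD8+ T cell libraries lay within 16.0 to 28.6 CPM.

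Ifit3 was at 90.7 and 25.8 CPM in WT NK cells and within 10.3 to 12.5 CPM in the 4 mutant NK cell libraries. Ifit3 in CD8+ T cells was at 232 and 300 CPM in WT, 40.5 and 1.41 CPM in KO, and 66.2 and 5.27 CPM in KE libraries. The mutant NK cell libraries were close together while the mutant CD8+ T cell libraries of the same group differed widely. Ifit3b, a near-copy of Ifit3, was at 0.251 CPM (3 counts) and 26.9 CPM in WT NK cells and at 0 counts in all 4 mutant NK cell libraries. Ifit3b in CD8+ T cells was at 83.9 and 43.4 CPM in WT, 6.05 and 0 CPM in KO, and 12.1 and 0 CPM in KE libraries. Ifit3b made up 26.6% and 12.6% of the summed Ifit3 and Ifit3b counts in the WT CD8+ T cell libraries, but 0.276% and 51.0% in the WT NK cell libraries, a spread that covered both CD8+ T cell values. Taking the floor of 3 counts per library for the groups at 0, Ifit3b was at least 59.5-fold lower in KO and at least 54.2-fold lower in KE than in WT NK cells, but 349 of the 352 WT counts came from WT replicate 2. Without that library WT was at the floor as well and no fold can be given.

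Ifit1bl1, a mouse Ifit1 paralog, was the member with the clearest preference for CD8+ T cells. It was at 682 and 449 CPM in WT, 6.05 and 115 CPM in KO, and 55.3 and 16.0 CPM in KE CD8+ T cells. In NK cells it was at 14.7 and 34.9 CPM in WT, 12.1 and 0.0739 CPM in KO, and 0.0921 and 13.1 CPM in KE libraries. In each mutant NK cell group 1 library was just under the lower WT library and the other was at 1 count.

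Isg15 was at 19.1 and 21.2 CPM in WT CD8+ T cells, compared with 1.84 and 9.13 CPM in KO and 0.0827 and 3.59 CPM in KE libraries. In NK cells it was at 18.8 and 0.231 CPM (3 counts) in WT, 6.73 and 4.43 CPM in KO, and 6.26 and 1.95 CPM in KE libraries. The mutant NK cell values thus fell between the 2 WT values, and the direction of the Isg15 difference in NK cells rested on WT replicate 1, without which the fitted log2 fold change turned from -0.77 to 4.53 in KO and from -1.21 to 4.10 in KE cells. Rsad2, which encodes viperin, was at 111 and 50.6 CPM in WT NK cells, 6.33 and 0 CPM in KO and 2.58 and 0.0749 CPM in KE NK cells. Rsad2 in CD8+ T cells was at 111 and 44.7 CPM in WT, 0.0765 and 0.0830 CPM (1 count each) in KO, and 7.69 and 0 CPM in KE libraries. WT levels of Rsad2 were alike in both cell types, and no mutant library exceeded 7.69 CPM.

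Mx1 was at 204 and 161 CPM in WT NK cells, 9.54 and 0.222 CPM in KO and 4.51 and 0 CPM in KE NK cells. Mx1 in CD8+ T cells was at 163 and 256 CPM in WT, 11.8 and 17.8 CPM in KO, and 36.6 and 0.0732 CPM in KE libraries. The gap between the lowest WT and the highest mutant library was wider for Mx1 than the distance between the WT libraries of either cell type. Mx2 was at 30.8 and 62.1 CPM in WT NK cells, 0.0782 and 32.4 CPM in KO and 0.0921 and 0 CPM in KE NK cells. Mx2 in CD8+ T cells was at 40.3 and 52.3 CPM in WT, 0 and 5.81 CPM in KO, and 0.0827 and 0.0732 CPM (1 count each) in KE libraries. A single KO NK cell library, replicate 2, therefore held Mx2 at a WT level, and this library also had the highest Ifit1 value of the mutant NK cells while Ifit1bl1 and Rsad2 were at 1 and 0 counts in it.

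Values near 0 in 1 library of a pair were frequent among the members in the mutants. Of the 72 values of the 9 genes in mutant libraries 25 (34.7%) were at or under the floor of 3 counts, compared with 2 of 36 (5.56%) in WT libraries. Over all 13279 genes tested these shares were 21.3% and 19.7%. The 2 libraries of a mutant group differed by at least 4-fold (log2 CPM with a prior count of 2) in 18 of 36 cases, and in 15 of the 36 only 1 of the 2 was at or under the floor. In WT groups the difference was at least 4-fold in 2 of 18 cases. Over all genes tested it was at least 4-fold in 25.1% of cases in the mutant as in the WT groups. The libraries held between 2 and 5 members at or under the floor in the mutants and 0 or 1 in WT. These differences between replicates set the width of the errors in the tests that follow.

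Compared per kilobase of full exon length, Ifit1bl1 had the highest mean in WT CD8+ T cells, of 250 ± 73.1 CPM per kilobase (SD, n = 2), ahead of Ifit3 at 152 ± 27.6, Ifit1 at 126 ± 36.7 and Mx1 at 61.9 ± 19.6. In WT NK cells Mx1 had the highest mean, 53.8 ± 9.11 CPM per kilobase (SD, n = 2), followed by Ifit1 at 43.3 ± 1.68, Ifit3 at 33.4 ± 26.3 and Ifit2 at 24.6 ± 3.13. Among these, the ranges of Ifit3 and Ifit1 overlapped in CD8+ T cells and those of the other neighbours in the order did not. In NK cells Mx1 and Ifit1 did not overlap, while the range of Ifit3 covered those of Ifit1 and Ifit2 and overlapped that of Mx1. These orders rest on the full exon length, although only the distinct parts of Ifit3 could be counted. Per kilobase of unique exon windows Ifit3 came first in both cell types, at 312 ± 56.6 CPM against 268 ± 78.2 CPM for Ifit1bl1 in WT CD8+ T cells and at 68.5 ± 54.0 CPM against 56.5 ± 9.55 CPM for Mx1 in WT NK cells (SD, n = 2), with overlapping ranges in each case. The order of the highest members was therefore not settled. Ifit2, Rsad2 and Mx2 were at 17.7 to 20.6 CPM per kilobase in WT CD8+ T cells and at 19.2 to 24.6 CPM per kilobase in WT NK cells.

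For the test of the knockout effect in NK cells (KOvsWT), edgeR's quasi-likelihood test was fitted to all 13279 genes and 12 libraries, and genes were called at a false discovery rate (FDR) under 0.05 when the log2 fold change was 1 or more in size. All 9 members had a negative log2 fold change, with a median of -2.34 that was the same with Ifit3b at its bound, compared with -0.01 over all genes. None of the 9 was called, nor was any other gene (0%). At an unadjusted p under 0.05 edgeR gave 3 members (Mx1, Ifit2 and Ifit3b) and 6.30% of all genes. Ifit2 had the smallest error, with a log2 fold change of -7.06 ± 1.13 (SE, FDR = 0.197 in edgeR). Mx1 was at -5.22 ± 2.29 and Rsad2 at -4.67 ± 2.51 (SE, FDR = 0.766 each in edgeR). DESeq2 called Ifit2 alone of the 9 (FDR = 3.4e-11) while calling 2.67% of all genes, and edgeR without the filter on low counts called Mx1, Ifit2, Ifit3b and Ifit1bl1 while calling 0.823%. The myeloid markers named above were lower in both KO NK cell libraries (26.5 and 7198 CPM summed) than in WT, and their part in the NK cell differences was not tested.

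The kinase-inactive effect in NK cells (KEvsWT) was similar in direction, with all 9 members negative and a median log2 fold change of -2.45, also with Ifit3b at its bound, against 0 over all genes. Again no member was called (0% of genes called), and at an unadjusted p under 0.05 edgeR gave Mx1, Mx2 and Ifit3b (3 of 9) and 6.01% of all genes. Mx2, with 1 count in the 2 KE libraries against 1174 in WT, had a ratio of 1140-fold with an exact counting interval of 204 to 45085, which covers counting error only. Mx1 was lower by 6.35 ± 2.43 on the log2 scale (SE) and Ifit2 by 1.93 ± 0.89 (SE), with FDR of 0.772 and 0.824 in edgeR. DESeq2 called Mx2 (FDR = 0.00285) at a background of 2.79%, and edgeR without the filter called Mx1, Mx2, Rsad2 and Ifit3b at a background of 1.08%. The myeloid markers summed to 63.9 and 416 CPM in the KE NK cell libraries, below both WT libraries, and their part was not tested here either.

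In CD8+ T cells the knockout effect had a median of -3.66 on the log2 scale over the members, all 9 of them negative, against 0 over all genes. edgeR called 0.0527% of genes and none of the 9, with 2 members (Rsad2 and Ifit3) and 4.82% of genes at an unadjusted p under 0.05. Rsad2 was reduced to 2 counts in the KO group from 2115 in WT, a ratio of 974-fold (exact counting interval 269 to 8046, counting error only). Ifit3 was at -3.66 ± 1.41, Ifit1 at -3.22 ± 1.59 and Mx1 at -3.82 ± 2.14 (log2 fold change ± SE, FDR = 0.887 each in edgeR). DESeq2 called Rsad2 (FDR = 0.0014) with 1.65% of genes called, and edgeR without the filter called Mx1, Rsad2, Ifit1, Ifit3 and Ifit1bl1 with 0.523% called. Here the myeloid markers summed to 253 and 280 CPM in the WT and to 88.9 and 254 CPM in the KO CD8+ T cell libraries. Their part in the CD8+ T cell differences was not tested.

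The kinase-inactive effect in CD8+ T cells had a median of -3.45 over the 9 negative members and 0 over all genes. None of the members was among the 0.0828% of genes called by edgeR, and Mx2 and Ifit2 (2 of 9) were at an unadjusted p under 0.05, as were 5.56% of genes. Mx2 fell from 1265 to 2 counts, a ratio of 597-fold (exact counting interval 165 to 4936, counting error only). Ifit2 was at -2.05 ± 0.89, Ifit1bl1 at -3.99 ± 1.97 and Isg15 at -3.45 ± 2.38 (log2 fold change ± SE), with FDR of 0.792, 0.792 and 0.832 in edgeR. DESeq2 called Mx2 (FDR = 0.00357) at a background of 2.39%, and without the filter edgeR called Mx1, Mx2, Ifit1, Ifit3 and Ifit1bl1 at 0.78%. KE replicate 1 held the higher values of Ifit1, Ifit3, Ifit3b, Ifit1bl1, Rsad2 and Mx1 in this group, and without it edgeR called Ifit1 (log2 fold change -11.06, FDR = 0.0365) while calling 0.0602% of genes. That value compares 1 KE library with 2 counts of Ifit1, which is assumed to vary like the other groups. The myeloid markers summed to 324 and 597 CPM in the KE CD8+ T cell libraries, above both WT libraries (253 and 280 CPM). Their part was not tested.

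**Figure D3:**
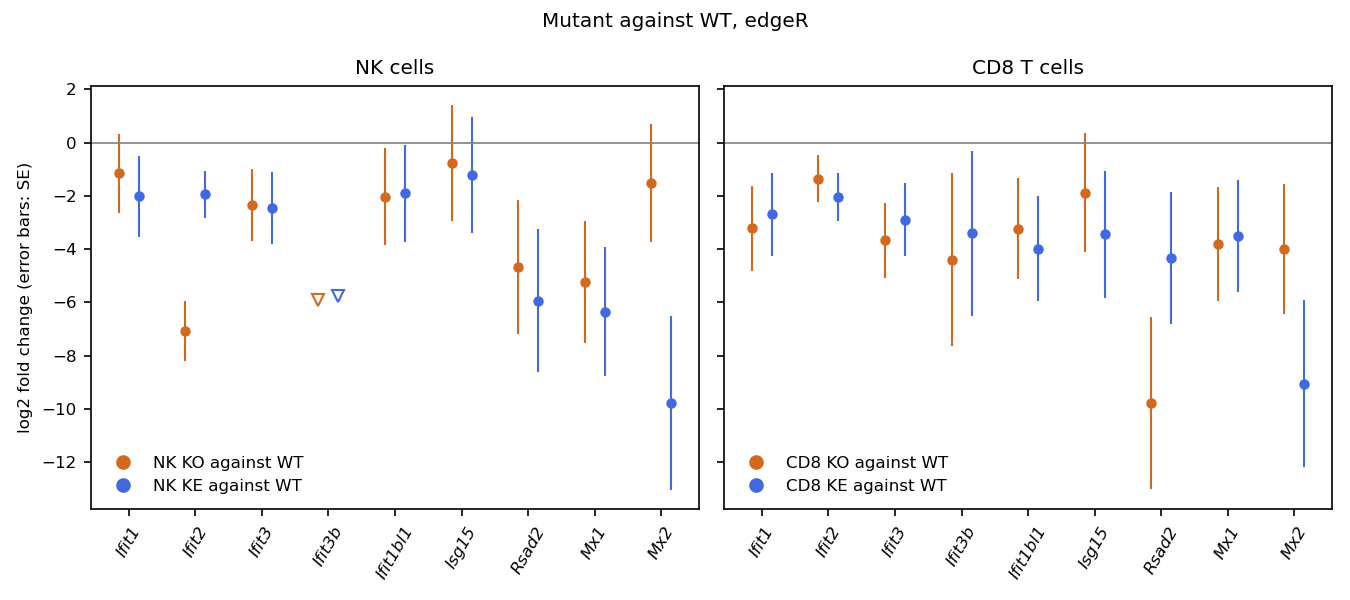
Log2 fold change of each of the 9 genes in KO (orange) and KE (blue) against WT, in NK cells and CD8+ T cells, with SE derived from the edgeR test as error bars. Open triangles mark Ifit3b in NK cells, where the mutant groups were at 0 counts and the value is computed from the mean of the WT libraries against the floor of 3 counts per library. This mean rests on WT replicate 2, since replicate 1 was itself at 3 counts. Points lie below 0 in all cases and most error bars span several log2 units.

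The differences were estimated with least error when both mutants were set against WT over both cell types. The fit took all 12 libraries as independent, although no source used here says whether NK and CD8+ T cells came from the same mice. If they did, these errors may be too small. In this comparison 8 members had log2 fold changes between -6.18 and -1.83, and Ifit3b had a fitted value of -7.17 that depends on the prior count, since its mutant NK cell groups were at 0 counts. The median of the 9 was -3.10, the same with Ifit3b at its bound, compared with a median of -0.03 over all genes, of which 52.0% were negative. edgeR called Ifit2 (-3.10 ± 0.51, SE, FDR = 0.033), and called 0.429% of all genes. As many as 8 of the 9 had an unadjusted p under 0.05 in edgeR, compared with 9.92% of all genes, and only Isg15 did not (-1.83 ± 1.27, SE, FDR = 0.762). Rsad2 was at -6.18 ± 1.43 (SE, FDR = 0.144), Mx2 at -6.08 ± 1.45 (SE, FDR = 0.159) and Mx1 at -4.73 ± 1.19 (SE, FDR = 0.184) in edgeR. The Ifit2 call rested on a narrow margin: its log2 fold change ranged from -3.52 to -2.75 when each library was left out in turn, and the FDR rose above 0.05 in 10 of the 12 cases, all but those that left out a KO NK cell library. With a term for the replicate number in the model (replicate block) Ifit2 was not called (FDR = 0.073 in edgeR). DESeq2 called Ifit2, Ifit3, Rsad2, Mx1 and Mx2 (5 of 9) at a background of 3.22%, and edgeR without the filter called all but Isg15 at a background of 1.7%. The smallest to the largest FDR ran from 1.1e-06 to 0.593 in DESeq2.

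Within each cell type, the same comparison of 4 mutant with 2 WT libraries gave a median of -4.49 in NK cells and -3.61 in CD8+ T cells over the members, all negative. The order of these medians does not hold gene by gene, since the difference between the effects (NK minus CD8) was positive for 6 members, negative for 3 and had a median of 0.89. edgeR called none of the 9 in NK cells, where 0.0301% of genes were called, nor in CD8+ T cells, where 0.203% were called. At an unadjusted p under 0.05 edgeR gave 6 members and 9.04% of all genes in NK cells, and 7 members and 6.72% of all genes in CD8+ T cells. DESeq2 called Ifit2 in the former, at a background of 3.27%, and Rsad2 and Mx2 in the latter, at 2.3%. Without the filter edgeR called 7 members and 374 of 23707 genes in NK cells, and 6 members and 209 of 23707 genes in CD8+ T cells. Ifit2 was at -4.49 ± 0.75 in NK cells (SE, FDR = 0.0819) and at -1.70 ± 0.71 in CD8+ T cells (SE, FDR = 0.725) in edgeR. The difference between these effects is the test of whether the mean effect of both mutants was unequal in the 2 cell types. It gave -2.80 ± 1.08 for Ifit2 (SE, FDR = 0.858 in edgeR), the only member at an unadjusted p under 0.05, as were 5.70% of all genes in edgeR and 9.39% in DESeq2. No member was called in this test by edgeR, with 0.0151% of genes called, or by DESeq2, with 1.88% called. For Mx1 the difference was -2.12 ± 2.39 and for Rsad2 1.75 ± 2.67 (SE), so that effects several log2 units apart could not be told from equal ones with these replicates.

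KO and KE cells were compared directly to separate loss of the protein from loss of its kinase activity. In NK cells 2 members were lower and 6 higher in KO than in KE cells, and Ifit3b was at 0 in both. edgeR called no gene at all (0%), with Ifit2 (-5.12 ± 1.03, SE, FDR = 0.729) and Mx2 (8.26 ± 3.10, SE, FDR = 1) at an unadjusted p under 0.05, as were 3.80% of genes. For Mx2 all but 1 of the 440 KO counts came from replicate 2, and without it the log2 fold change was 0.71. For Ifit2 both KO libraries (1.17 and 0.222 CPM) lay below both KE libraries (11.9 and 37.2 CPM). DESeq2 called both genes (FDR = 1.4e-05 for Ifit2 and 0.0352 for Mx2) at a background of 1.46%, and edgeR without the filter called Ifit2 (FDR = 0.0141) at 0.405%. In CD8+ T cells 5 members were lower and 4 higher in KO than in KE cells. None was called there by edgeR (0% of genes called, none of the 9 at an unadjusted p under 0.05) or by DESeq2 (1.14% of genes called), which gave 2 members and 7.30% of genes at that level. The log2 differences ran from -5.43 ± 2.78 for Rsad2 to 5.05 ± 2.69 for Mx2 (SE), intervals that leave large differences in either direction possible.

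Between WT NK cells and WT CD8+ T cells, 6 members were lower and 3 higher in NK cells, with a median log2 fold change of -1.08 against 0.01 over all genes. Ifit1bl1 differed the most (-4.51 ± 2.02, SE, FDR = 0.484 in edgeR), with a mean of 24.8 ± 14.3 CPM in NK cells and 566 ± 165 CPM in CD8+ T cells (SD, n = 2). edgeR called 0.776% of genes and no member, with Ifit1bl1 the only one at an unadjusted p under 0.05, as were 10.2% of genes, and DESeq2 called none of the 9 at a background of 6.06%. Without the filter edgeR called Ifit1bl1 (FDR = 4.5e-11) at a background of 2.27%. Rsad2, Mx1 and Mx2 were at nearly the same mean in both cell types (log2 fold changes of 0.05 ± 2.15, -0.20 ± 1.91 and 0.00 ± 2.17, SE). The WT ranges of Ifit2, Rsad2, Mx1 and Mx2 overlapped between the cell types, whereas those of Ifit1, Ifit3, Ifit3b, Ifit1bl1 and Isg15 were separate, with CD8+ T cells higher. Over all genes tested the WT ranges were separate in 41.1%, with CD8+ T cells higher in 19.5% and NK cells higher in 21.6%, and those of Isg15 were separated only by 18.8 against 19.1 CPM. The myeloid markers also differed between these groups, at 14181 and 16555 CPM in WT NK cells and 253 and 280 CPM in WT CD8+ T cells, and their part in this comparison was not tested.

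The receptor and signaling genes upstream of these ISG were examined next. Of 7 genes of the signal chain (Ifnar1, Ifnar2, Tyk2, Jak1, Stat2, Irf9 and Irf7), edgeR called 1 lower and 0 higher in the comparison of both mutants with WT over both cell types, where 0.429% of all genes were called, and the median was -0.25, with 4 negative and 3 positive values against 52.0% negative over all genes. The gene called was Irf7, the interferon-induced regulator that amplifies type I interferon responses (-2.45 ± 0.38, SE, FDR = 0.0254 in edgeR). Its FDR rose above 0.05, to at most 0.121, in 8 of the 12 cases with 1 library left out. It was at 607 and 453 CPM in WT, 97.1 and 102 CPM in KO, and 126 and 148 CPM in KE NK cells. Irf7 in CD8+ T cells was at 307 and 299 CPM in WT, 52.4 and 19.8 CPM in KO, and 99.3 and 18.4 CPM in KE libraries. Irf9 (-0.94 ± 0.31, SE) and Stat2 (-1.41 ± 0.45, SE) were not called (FDR = 0.328 and 0.315 in edgeR), and the receptor chains and Jak1 were between -0.25 and 0.13. The type I interferon genes Ifnb1, Ifna2 and Ifna4 were at 0 counts in all 12 libraries, while Ifng, the type II interferon gene, was present in all and had a log2 fold change of 0.99 ± 0.44 (SE, FDR = 0.493 in edgeR).

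The enzymes that attach and remove ISG15 were also examined. All 5 (the activating enzyme Uba7, the conjugating enzyme Ube2l6, the ligases Herc6 and Trim25, and the protease Usp18) had a negative log2 fold change over both cell types, where 52.0% of all genes were negative and 0.429% were called, with a median of -2.22. Trim25 had log2 fold changes of -1.60 in KO and -2.72 in KE NK cells and of -0.02 and 0.19 in KO and KE CD8+ T cells, and the difference between the effects was -2.24 ± 0.94 (SE, FDR = 0.858 in edgeR). edgeR called Usp18, which removes ISG15 and inhibits signaling at IFNAR2 (-4.71 ± 0.76, SE, FDR = 0.0314), while Herc6 (-2.22 ± 0.56, SE, FDR = 0.186) and Ube2l6 (-2.91 ± 0.95, SE, FDR = 0.324) were not called. Usp18 was at 281 and 277 CPM in WT, 7.90 and 69.4 CPM in KO, and 24.7 and 17.6 CPM in KE NK cells. Usp18 in CD8+ T cells was at 316 and 241 CPM in WT, 1.38 and 12.7 CPM in KO, and 4.38 and 0.146 CPM in KE libraries. The FDR of Usp18 rose above 0.05, to at most 0.143, when any of 8 of the 12 libraries was left out, each WT library among them. With a replicate block Usp18 was not called (FDR = 0.0725 in edgeR). The WT replicates of Usp18 were close in both cell types and no mutant library exceeded 69.4 CPM.

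**Figure D4:**
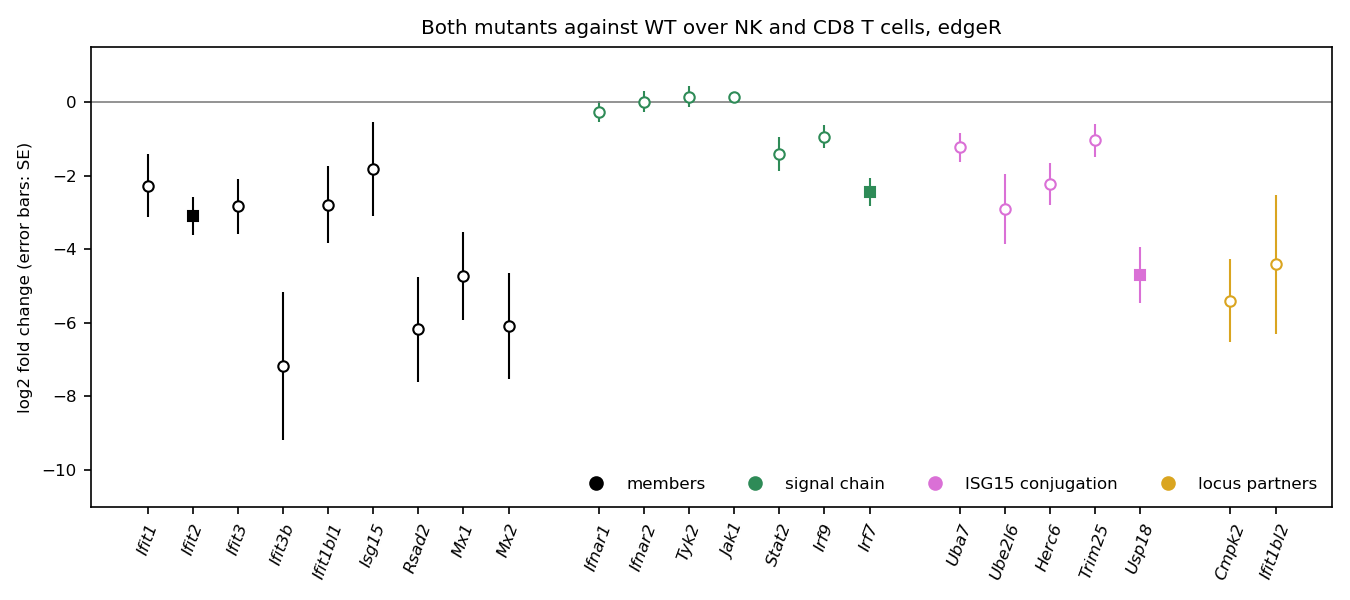
Log2 fold change of both mutants against WT over NK and CD8+ T cells for the 9 members (black), the signal chain (green), the ISG15 conjugation genes (pink) and the 2 locus partners (yellow), with SE derived from the edgeR test. Filled squares mark the genes called (Ifit2, Irf7 and Usp18), open circles those not called, and the value of Ifit3b rests on NK cell groups at 0 counts.

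Genes next to the members were used to ask whether the pattern extended along the chromosome. Cmpk2, a nucleotide kinase gene that starts 12752 bases from Rsad2 on the opposite strand, was at 112 and 97.6 CPM in WT NK cells, 14.9 and 0.0739 CPM in KO, and 64.1 and 16.0 CPM in KE NK cells. Cmpk2 in CD8+ T cells was at 49.3 and 136 CPM in WT, 0.0765 and 0.0830 CPM in KO, and 2.23 and 0 CPM in KE libraries. Its log2 fold change over both cell types was -5.39 ± 1.12 (SE, FDR = 0.0944 in edgeR, 2.1e-05 in DESeq2), close to that of Rsad2. Ifit1bl2, which lies within the Ifit cluster, did not exceed 4.79 CPM in any library. Of the 8 protein-coding genes flanking the 4 loci, 5 passed the filter. None of the 5 was called, where 0.429% of all genes were, and all 5 had a negative log2 fold change with a median of -2.10. These values do not settle whether the pattern ended at the loci. The lysosomal lipase gene Lipa, next to the Ifit cluster, had a log2 fold change of -0.97 ± 0.43 (SE, FDR = 0.493 in edgeR) and was the only 1 of the 5 at an unadjusted p under 0.05.

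The genes most like the members were sought by the correlation of log2 CPM with the mean z score of the 9 genes over the 12 libraries, which share cell type and genotype groups, so that a high value is a description only. Among the 5 genes with the highest Pearson's r were the interferon-induced gene Ifi27l2a (r = 0.93), the surface restriction factor tetherin gene Bst2 (r = 0.93), the apoptosis-associated gene Xaf1 (r = 0.90) and Gid8 (r = 0.90). Ifi27l2a was at 168 and 216 CPM in WT NK cells and 0.645 to 15.5 CPM in mutant NK cells, and at 1868 and 2205 CPM in WT CD8+ T cells and 5.71 to 47.1 CPM in mutant CD8+ T cells. Among the members themselves Mx1 followed the mean pattern most closely (r = 0.90) and Isg15 the least (r = 0.30), each of them being part of that mean. With Spearman's rho, 1 of the 5 genes (Ifi27l2a) was shared with the list by Pearson's r.

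In NK cells the sum of the 9 genes and the sum of the myeloid markers were both lower in every mutant library than in WT, although single genes of both lists were not. KO NK replicate 1 combined 7198 CPM of myeloid markers with 72.5 CPM of the 9 genes, whereas KO NK replicate 2 combined 26.5 CPM with 128 CPM. The mutant NK cell library with the most myeloid transcripts was thus among the lowest in the 9 genes. In CD8+ T cells the WT libraries held 1611 and 1690 CPM of the 9 genes, against 41.9 to 297 CPM in the mutants. The WT myeloid sums of 253 and 280 CPM were below those of both KE libraries (324 and 597 CPM). The KO sums were 88.9 and 254 CPM, and the part of the myeloid transcripts in CD8+ T cells was not tested. The part of the myeloid transcripts, and of the NK and T cell markers that were higher in 4 and 3 of the 4 mutant libraries, in the difference between WT and mutant NK cells was not tested.

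**Figure D5:**
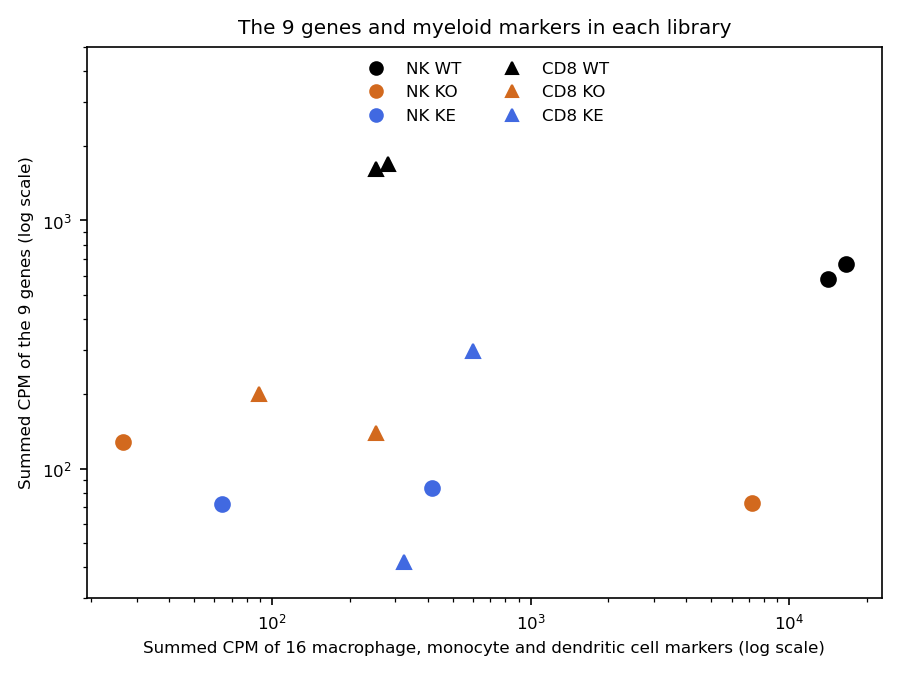
Summed CPM of the 9 genes (y axis, log scale) against the summed CPM of 16 macrophage, monocyte and dendritic cell markers (x axis, log scale) in the 12 libraries, circles for NK and triangles for CD8+ T cells, black for WT, orange for KO and blue for KE. The WT NK cell libraries are at the far right, with 14181 and 16555 CPM of markers, and the WT CD8+ T cell libraries at the top, with 253 and 280 CPM of markers.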

How the data were processed

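The deposited table held raw read counts per gene for the 12 libraries, with no normalization. Per the study's methods, the authors trimmed 50-base single-end Smart-seq2 reads with Trimmomatic, aligned them to mm10 (GRCm38) with STAR and counted uniquely aligned reads in exons without a stated strand setting. The 9 genes and all gene lists were chosen with earlier results of these data known. Named genes were the 9 members, fixed lists of signaling, interferon, ISG15 conjugation and neighboring genes, and the 5 genes most like the members, 1 of which is not reported here.

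Counts were normalized with TMM and tested with edgeR 4.0.16 (R 4.3.3), using the robust quasi-likelihood test in 1 model of 6 groups, on genes whose normalized counts averaged 10 or more, with Benjamini-Hochberg adjustment. Log2 fold changes used a prior count of 0.125. Total counts of 10378761 to 14732882 per library set the counting precision, and intervals (exact, 95%) and floors cover counting error only, since reads carried no molecular identifiers. DESeq2 1.42.0, median-ratio (RLE) size factors, no filter, a fit per cell type, a replicate block and each library left out were alternatives. The filtered edgeR fit, edgeR without the filter and DESeq2 were tested on simulated data, and the other alternatives were not. In these data DESeq2 and the fit without the filter called unchanged genes more often than the filtered edgeR fit. The simulated spread was taken from the filtered edgeR fit, so the simulation does not compare the fits on equal terms. Scripts used Python 3.11.15. Coordinates came from GENCODE M21 on GRCm38, whereas the authors used release 93. Groups came from the labels, and no sample was left out.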

Additional observations from a re-analysis of the deposited data

How the results depend on the processing

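The number of the 9 genes called was 0 in 8 of the 9 comparisons and 1 (Ifit2) in that of both mutants with WT over both cell types. RLE size factors and a fit of each cell type alone left these counts as they were, where they could be fitted. DESeq2 called 1 in each of the 4 comparisons of a mutant with WT, 2 in NK KO against KE and 5 over both cell types. Without the filter on low counts edgeR called 4 in each NK and 5 in each CD8 comparison of a mutant with WT, 1 in NK KO against KE, 8 over both cell types and 1 in NK against CD8 in WT. The contrast within NK cells and within CD8 T cells, chosen after seeing the data, called 0 each in filtered edgeR. DESeq2 called 1 in NK and 2 in CD8 T cells in this contrast, and edgeR without the filter called 7 and 6. Leaving out each library in turn gave 0 to 1 called over both cell types, 0 to 1 in CD8 KE against WT, and 0 in the others.

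Leaving out 1 library turned the direction of Isg15 alone, without NK WT replicate 1: its log2 fold change ranged from -1.77 to 4.53 for NK KO against WT, between -2.29 and 4.10 for NK KE against WT, and between -2.91 and 0.81 over both cell types. All other members kept a negative sign in these comparisons with WT under every alternative. The counts of members below both WT libraries, with libraries left out after seeing the data, were 7 to 8 in NK and 9 to 9 in CD8 T cells.

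The same replicate numbers occur in every group. Deviations of same-numbered libraries from their group means correlated between -0.025 and 0.038 over 15 pairs of groups, none of them over 0.1. Replicates varied so widely that a shared source could go unseen, so these values do not settle whether the numbers pair the samples. With a replicate block 0 members were called over both cell types (Ifit2 at -3.09, FDR = 0.073 in edgeR), and the block changed no other count of members. Usp18 also lost its call under the block (log2 fold change -4.75, FDR = 0.0725 in edgeR), while Irf7 kept it (FDR = 0.0276). The cause of these changes was not tested. With 2 libraries per group and many members at or under 3 counts in mutants, the size of the differences is poorly bounded.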
